A study of Mus musculus with 29 samples.

Results

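This account follows 10 genes of the Notch pathway through brain tissue of mouse embryos: the receptor genes Notch1, Notch2 and Notch3, the ligand genes Dll1, Dll3 and Jag1, and the genes of basic helix-loop-helix factors Hes1, Hes5, Hes6 and Hey1. They were chosen by name, as the rows with these symbols in each RNA count table, and all 10 were found among the 25239 genes listed. Poly(A) RNA was sequenced from embryos of stage E11.5 in 4 groups of 2 libraries. The groups were wild-type forebrain, forebrain with the hs267-853 knockout, wild-type midbrain, and midbrain with the hs654 knockout. Both knockouts remove developmental enhancers, not genes, so the genotype labels cannot be checked by the count of a deleted gene. What the hyphenated label hs267-853 covers is not explained in the sources used here. Each library was made from tissue of several embryos of one genotype pooled together, and the labels give neither the mouse strain nor the number of embryos. The 21 capture Hi-C samples of the series were not analysed here.

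Notch receptors are activated by Delta and Jagged ligands on a neighbouring cell. The receptor is then cut by proteases, and its freed intracellular part enters the nucleus, where it joins the DNA-binding protein RBPJ and switches on genes of the Hes and Hey families. Hes and Hey proteins repress proneural genes, so in the embryonic brain the pathway is known for keeping some neural progenitors undifferentiated while neighbours that make more Delta become neurons.

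In the RefSeq annotation of GRCm38.p6 all 10 are protein-coding genes. The receptor genes lie at chr2:26457902-26503822 (Notch1), chr3:98013538-98150367 (Notch2) and chr17:32120820-32166896 (Notch3), and the ligand genes at chr17:15367354-15376932 (Dll1), chr7:28293555-28301785 (Dll3) and chr2:137081451-137116520 (Jag1). Hes1 lies at chr16:30065357-30067796, Hes5 at chr4:154960626-154962372, Hes6 at chr1:91411483-91414038 and Hey1 at chr3:8663359-8667038. The spans of Notch1, Notch2, Notch3 and Hey1 overlap those of other annotated genes (0610009E02Rik and Mir6996, Gm40103, Gm38585 and Gm41568, and LOC115489673). The strand setting of the counting is not given in the sources used here, so reads of overlapping genes may not have been told apart.

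The total count over genes was 9051632 to 18024406 per library, and the 10 genes together held 13168 to 23352 counts. Relative to its count, counting error is largest for Hes1 in midbrain, which had 184 to 324 counts per library. All 10 genes passed the filter on low counts. Values are given as CPM (a gene's count relative to its TMM-scaled library total), which are not corrected for transcript length, so levels are compared between groups and not between genes. The tissues were apart on the first principal component (72.1% of the variance), while the second (6.33%) set forebrain knockout replicate 1 apart from the other 7 libraries. All 9 tested genes of a forebrain list were higher in wild-type forebrain and all 10 genes of a midbrain list were higher in wild-type midbrain, as the tissue labels have it. Nothing in the labels says whether pools came from separate litters or days, so p-values measure the spread between these pools.

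The wild-type libraries were compared to ask how the pathway's genes differ between forebrain and midbrain. Dll3 (2.49-fold), Jag1 (2.18-fold), Hes5 (1.95-fold), Hes6 (1.52-fold) and Notch3 (1.22-fold) were higher in midbrain. Hes1 (2.43-fold), Notch2 (1.34-fold) and Hey1 (by 0.58 on the log2 scale) were higher in forebrain. A gene is said to pass where its p-value from the quasi-likelihood test of edgeR, adjusted over all 15383 genes tested, is under 0.05. By this measure 8 of the 10 genes passed, 3 higher and 5 lower in forebrain. Of all genes tested, 29.6% passed in this comparison, 14.3% higher and 15.3% lower. An unadjusted p under 0.05 was found for the same number, 8 of 10, against 39.7% of all genes. The 2 wild-type groups did not overlap for 9 of 10, against 65.9% of all genes. The median size of the log2 fold change was 0.59 for the 10 genes and 0.23 for all genes tested. Between the 4 forebrain and the 4 midbrain libraries of both genotypes, 9 of the 10 genes did not overlap, against 40.9% of all genes tested, and Dll1 was the exception. The 10 genes were chosen with earlier results of these data known, and all genes tested include genes with far fewer counts. The comparisons with all genes are therefore a description. These are bulk samples, in which a smaller number of expressing cells and less RNA per cell cannot be told apart.

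**Figure D1:**
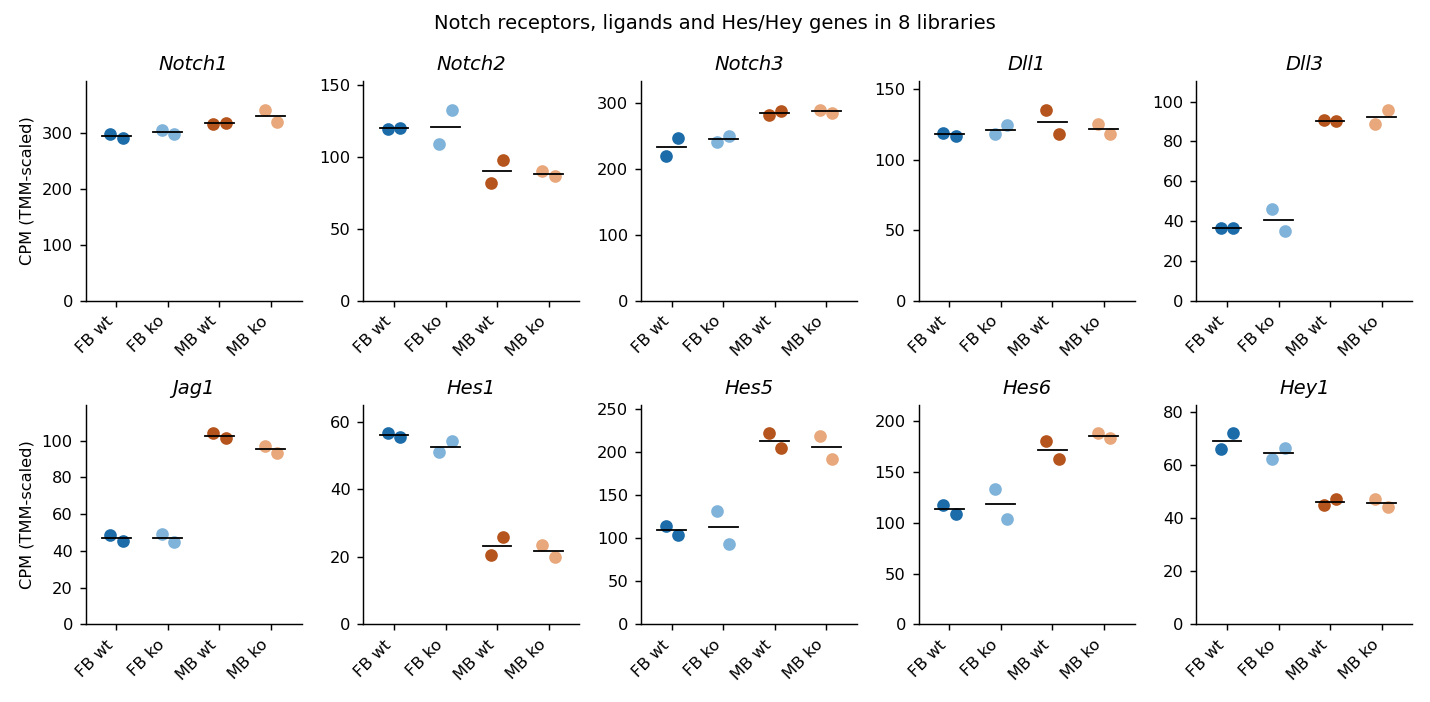
Level of each gene in CPM (TMM-scaled, linear axis from 0) in wild-type (wt) and knockout (ko) libraries of forebrain (FB, blue) and midbrain (MB, brown), with 1 point per library and a line at the mean of 2. Hes1 lies at 51.0 to 56.5 CPM in forebrain and 20.1 to 25.9 CPM in midbrain, while Dll3, Jag1, Hes5 and Hes6 lie higher in every midbrain library than in any forebrain library.

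Among the ligands, Dll3 had the largest difference. DLL3 differs from other Delta proteins in that it acts within the cell that makes it and does not activate receptors on neighbours. Dll3 measured 36.3 and 36.4 CPM in wild-type forebrain, 46.0 and 35.2 CPM in knockout forebrain, 90.9 and 90.02 CPM in wild-type midbrain, and 88.9 and 95.9 CPM in knockout midbrain (replicates 1 and 2 in each case). Every midbrain library was at least 1.93 times the highest forebrain library. The wild-type log2 fold change, forebrain minus midbrain, was -1.32 with a standard error of 0.107 (adjusted p 1.08e-06) by the edgeR quasi-likelihood test.

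Jag1 encodes a Jagged ligand, which activates receptors from the surface of a neighbouring cell. It measured 48.7 and 45.6 CPM in wild-type forebrain, 49.5 and 44.9 CPM in knockout forebrain, 103.9 and 101.5 CPM in wild-type midbrain, and 96.9 and 93.5 CPM in knockout midbrain. The libraries of each tissue lay close together, and the tissues did not overlap. The wild-type log2 fold change was -1.12 with a standard error of 0.0762 (adjusted p 2.10e-07.)

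Dll1, the main Delta ligand of neurogenic cells, stood at nearly one level in both tissues. It measured 119 and 117 CPM in wild-type forebrain, 118 and 125 CPM in knockout forebrain, 135 and 118 CPM in wild-type midbrain, and 126 and 118 CPM in knockout midbrain. Its wild-type log2 fold change was -0.11, with a 95% interval of -0.26 to 0.054, and did not pass. Ratios within a library do not depend on how libraries are scaled. The count ratio of Dll3 to Dll1 was 0.283 to 0.390 in the 4 forebrain libraries and 0.671 to 0.810 in the 4 midbrain libraries. For Jag1 to Dll1 it was 0.361 to 0.420 in forebrain and 0.767 to 0.857 in midbrain. These ratios were chosen after the values were seen and are given as a description.

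The receptors differed less. Notch1, the receptor best known for maintaining neural progenitors, measured 298 and 292 CPM in wild-type forebrain, 306 and 298 CPM in knockout forebrain, 316 and 318 CPM in wild-type midbrain, and 342 and 320.1 CPM in knockout midbrain. The lowest midbrain library lay only 1.03 times above the highest forebrain library. The wild-type log2 fold change was -0.11 (95% interval -0.22 to 0.0092), which did not pass.

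Notch2, a paralogue of Notch1 that is also made by neural progenitors, was the receptor with more RNA in forebrain. Its forebrain levels were 119 and 120.4 CPM (wild type) and 109 and 133 CPM (knockout), against midbrain levels of 81.9 and 97.8 CPM (wild type) and 90.00 and 86.6 CPM (knockout). The wild-type log2 fold change was 0.42 with a standard error of 0.0984 (adjusted p 0.00623.) It was 0.29 without midbrain wild-type replicate 1, with an adjusted p of 0.0915, so this call rested on that library.

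Notch3, which in the brain is made by progenitors and by the mural cells that wrap blood vessels, was higher in midbrain. Its forebrain levels were 219 and 246 CPM (wild type) and 239.8 and 249.8 CPM (knockout), and its midbrain levels 282 and 287 CPM (wild type) and 289 and 284 CPM (knockout). The wild-type log2 fold change was -0.29 with a standard error of 0.0612 (adjusted p 0.00316.) The summed level of 6 mural cell markers was 77.0 to 93.8 CPM in forebrain and 72.7 to 98.6 CPM in midbrain, and these ranges overlapped. All 6 were above 0, and 1 was higher and 2 were lower in wild-type forebrain. The part of mural cells in the difference in Notch3 was not tested.

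Of the target genes, Hes1 and Hes5 went opposite ways. Both encode repressors that are direct targets of activated Notch in neural progenitors and that can stand in for each other. Hes1 measured 56.5 and 55.4 CPM in wild-type forebrain, 51.0 and 54.4 CPM in knockout forebrain, 20.5 and 25.9 CPM in wild-type midbrain, and 23.5 and 20.1 CPM in knockout midbrain. The lowest forebrain library was 1.97 times the highest midbrain library. Its wild-type log2 fold change was 1.28 with a standard error of 0.118, a fold of 2.43 (adjusted p 3.56e-06) by the edgeR quasi-likelihood test.

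Hes5 measured 114.5 and 103.7 CPM in wild-type forebrain, 131 and 93.9 CPM in knockout forebrain, 222 and 204 CPM in wild-type midbrain, and 219 and 192 CPM in knockout midbrain. The tissues did not overlap, although the forebrain knockout libraries were far apart. The wild-type log2 fold change was -0.97 with a standard error of 0.122, a fold of 1.95 (adjusted p 6.47e-05.) Within a library, Hes5 had 1.73 to 2.58 counts per count of Hes1 in forebrain and 7.90 to 10.8 in midbrain. The log2 ratio was 0.79 to 1.37 in forebrain and 2.98 to 3.44 in midbrain. This ratio too was chosen after the values were seen.

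**Figure D2:**
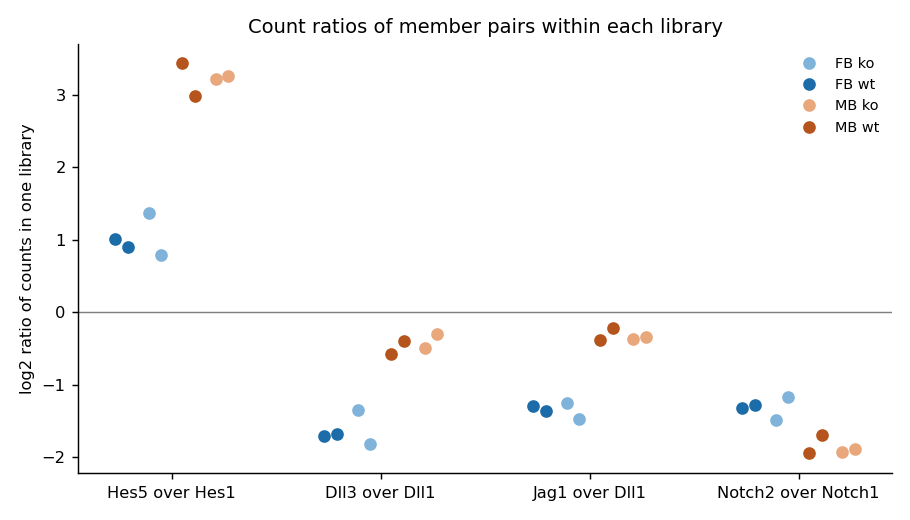
Log2 ratio of the counts of pairs of genes within each library, with 1 point per library, in wild-type (wt) and knockout (ko) forebrain (FB) and midbrain (MB). The ratio of Hes5 to Hes1 is 0.79 to 1.37 in forebrain and 2.98 to 3.44 in midbrain, and in each of the 4 pairs plotted the tissues do not overlap.

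Promoters are shown for Hes5, Jag1 and Dll3, the members with the largest differences in favour of midbrain, because RBPJ and Hes proteins read short DNA motifs. The RefSeq promoter table (GRCm38.p6) matched 8 of the 10 genes, with 10 windows, and has no entry for Hes1 or Hey1. Each sequence is the 250 bases before a transcript start, 5′ to 3′ in the direction of transcription, with capitals at matches to the RBPJ motif TTCCCAC (reverse complement GTGGGAA) or to the class C site of Hes proteins CACGCG (reverse complement CGCGTG).
Hes5, chr4:154960673-154960922, plus strand: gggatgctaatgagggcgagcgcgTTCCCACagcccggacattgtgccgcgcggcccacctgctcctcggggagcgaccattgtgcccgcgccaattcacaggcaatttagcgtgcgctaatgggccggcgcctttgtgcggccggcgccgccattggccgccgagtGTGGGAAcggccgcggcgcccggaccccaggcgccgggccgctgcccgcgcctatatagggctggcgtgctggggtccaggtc
Jag1, chr2:137116521-137116770, minus strand: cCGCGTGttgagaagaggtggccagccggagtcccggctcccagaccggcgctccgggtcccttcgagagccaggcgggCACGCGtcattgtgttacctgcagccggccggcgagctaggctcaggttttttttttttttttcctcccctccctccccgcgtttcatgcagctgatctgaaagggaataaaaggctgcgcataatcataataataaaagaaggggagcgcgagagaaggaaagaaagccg
Dll3, chr7:28301786-28302035, minus strand: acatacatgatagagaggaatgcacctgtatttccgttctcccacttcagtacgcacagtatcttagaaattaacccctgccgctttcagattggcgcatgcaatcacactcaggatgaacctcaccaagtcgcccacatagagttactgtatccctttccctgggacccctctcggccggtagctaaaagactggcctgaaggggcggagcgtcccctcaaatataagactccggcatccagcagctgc

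The Hes5 window held 2 matches to the RBPJ motif, 1 on each strand, whose first bases lie at -226 and -83 from the start, and it was the only one of the 10 windows with a match. That start lies inside the Hes5 span given above, downstream of its first base at chr4:154960626. The positions are therefore not distances from the annotated gene start. Of all 32851 windows of 250 bases before a start, searched in the same way, 5.42% held the RBPJ motif on either strand. The Jag1 window held 2 matches to the class C site, at -249 and -171, and the Notch2 window and 1 of the Dll1 windows held 1 each, against 7.62% of all windows. The N box of Hes proteins (CACNAG, reverse complement CTNGTG) matched in windows of Hes6, Notch1, Notch2 and Notch3, and in 36.7% of all windows. The motifs do not overlap one another in these windows. Matching letters describe the sequence and do not show binding.

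Hes6 and Hey1 completed the set. HES6 is made in cells that are turning into neurons and opposes HES1, whereas HEY1 is a Notch target of progenitors and blood vessels. Hes6 measured 117 and 108.5 CPM in wild-type forebrain, 133 and 104 CPM in knockout forebrain, 179.9 and 162 CPM in wild-type midbrain, and 188 and 183 CPM in knockout midbrain. Its wild-type log2 fold change was -0.60 with a standard error of 0.0976 (adjusted p 0.000515.)

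Hey1 measured 65.9 and 71.9 CPM in wild-type forebrain, 62.4 and 66.3 CPM in knockout forebrain, 44.8 and 47.2 CPM in wild-type midbrain, and 47.2 and 44.2 CPM in knockout midbrain. Every forebrain library was above every midbrain library. The log2 fold change was 0.58 with a standard error of 0.0834 (adjusted p 0.000190.) The summed level of 8 endothelial markers, all above 0, was 312 to 321 CPM in forebrain and 245 to 305 CPM in midbrain. The 245 CPM was that of midbrain wild-type replicate 1, and the other midbrain libraries were at 296 to 305 CPM. Of the 8 markers, 2 were higher in wild-type forebrain and 0 lower. The part of endothelial cells in the difference in Hey1 was not tested.

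The tissues were also compared in the knockout libraries, where tissue and deletion differ together. The group means come from other libraries than in wild type, but both comparisons share one fit and its estimate of the spread. Again 8 of the 10 genes passed, 3 higher and 5 lower in forebrain, where 29.4% of all genes tested passed, 14.6% higher and 14.8% lower. An unadjusted p under 0.05 was found for 9 of 10 (39.5% of all genes), and the groups did not overlap for 9 of 10 (64.4% of all genes). Each of the 8 kept its direction: the log2 fold change was 1.27 for Hes1, 0.49 for Hey1, 0.45 for Notch2, -0.23 for Notch3, -0.65 for Hes6, -0.87 for Hes5, -1.01 for Jag1 and -1.18 for Dll3. Dll1 (-0.011) did not pass. Notch1 (-0.13) had an adjusted p of 0.0762 by the edgeR quasi-likelihood test and passed at 0.0247 only where genes under a mean of 50 counts were removed. Notch3 passed at an adjusted p of 0.0129 by the same edgeR test. It did not pass without midbrain knockout replicate 1 or without replicate 2, although its log2 fold change hardly moved (-0.23 and -0.24).

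**Figure D3:**
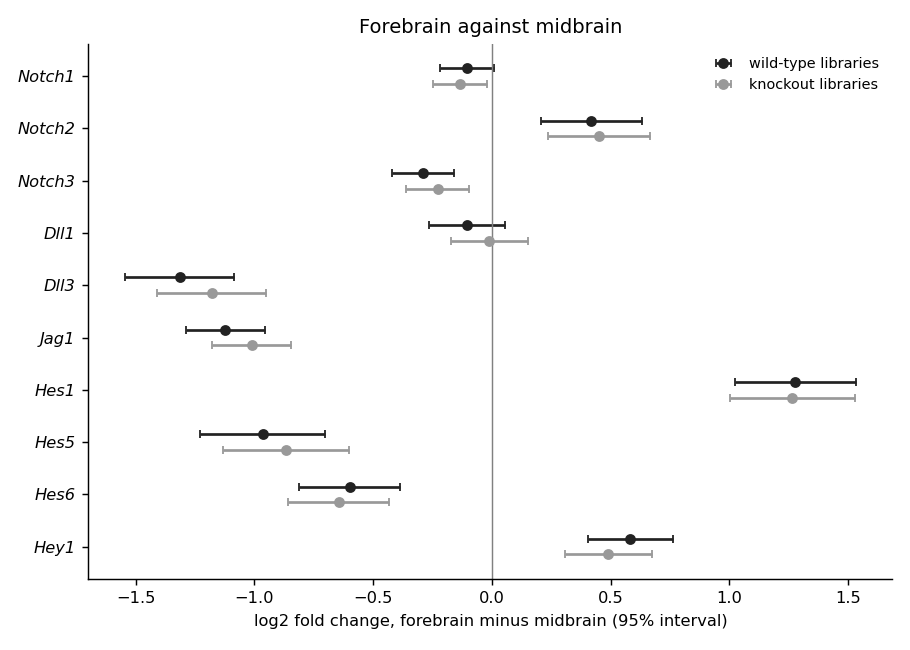
Log2 fold change of each gene, forebrain minus midbrain, with its 95% interval from edgeR's quasi-likelihood fit, in wild-type libraries (black) and knockout libraries (grey). Hes1 lies at 1.28 and 1.27 and Dll3 at -1.32 and -1.18, and the intervals of both genotypes overlap for each gene.

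Markers of neurons moved with this tissue difference. All 9 genes of a neuronal list, of which Tubb3 was the most abundant, were higher in wild-type midbrain. Their summed level was 1487 to 2096 CPM in forebrain and 3450 to 3896 CPM in midbrain. A list of 9 neural progenitor genes was at 5558 to 6033 CPM in forebrain and 5365 to 5574 CPM in midbrain, with 3 genes higher and 3 lower in wild-type forebrain. No gene of either list was at 0. The part of neuron content in the higher Dll3, Jag1, Hes5 and Hes6 of midbrain was not tested.

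The remaining genes of the pathway were followed by a list of 55, of which 54 had enough counts to be tested and Hes7 had not. In the wild-type comparison 20 passed, 4 higher and 16 lower in forebrain, and their share of 37.0% stands beside 29.6% of all genes tested. Hes2 and Hes3, among the lower genes in both genotypes, met the filter only through their midbrain counts and could only come out lower in forebrain. The median size of the log2 fold change of the 54 was 0.20 in wild type, and 0.23 for all genes. The number that passed in wild type fell to 10 without midbrain wild-type replicate 1, to 11 without midbrain wild-type replicate 2 and to 11 without forebrain wild-type replicate 2. Over all genes it fell from 4548 to 2816, 3510 and 3019 in the same fits. In the knockout libraries 21 passed, 6 higher and 15 lower, a share of 38.9% beside 29.4% of all genes tested. This fell to 13 and 10 without midbrain knockout replicates 1 and 2, while the number over all genes fell from 4523 to 2845 and 2810.

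Of 9 genes for the sugar-adding enzymes and ubiquitin ligases that tune receptors and ligands, only Mib1 passed in wild type (11.1%, beside 29.6% of all genes tested). MIB1 drives the uptake of bound ligands that starts signalling, and Mib1 was higher in midbrain, at 344 ± 10.01 CPM, than in forebrain, at 249 ± 8.32 CPM (SD, n = 2). Of 10 protease genes 3 passed (30%), and of 15 nuclear factors 5 did (33.3%). Both shares are near the 29.6% of all genes tested. Over all 10 protease genes, the wild-type log2 fold changes ran from -0.46 to 0.29. Rbpj measured 58.5 ± 1.47 CPM in wild-type forebrain and 53.8 ± 2.49 CPM in midbrain of wild type (SD, n = 2) and did not pass. Tle1, a corepressor that Hes proteins recruit, was higher in forebrain, at 175 ± 4.13 CPM against 104 ± 4.48 CPM in midbrain of wild type (SD, n = 2), or 0.75 (SE 0.0801) as a log2 fold change.

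Of 9 other regulators of the pathway, the Deltex genes among them, 6 passed in wild type (66.7%, beside 29.6% of all genes tested). Of these, 5 were higher in midbrain, as were 15.3% of all genes tested. Whether each of the 9 dampens or promotes signalling in these tissues was not tested. Dtx4, one of the Deltex ubiquitin ligases that act on Notch receptors, measured 135 ± 11.1 CPM in wild-type forebrain and 289 ± 3.07 CPM in midbrain of wild type (SD, n = 2), or -1.10 (SE 0.0663) as a log2 fold change. Fbxw7, which marks the freed Notch fragment for destruction, went the other way, at 55.6 ± 5.58 against 44.1 ± 2.20 CPM (SD, n = 2). Its log2 fold change of 0.34 did not pass without forebrain wild-type replicate 1 (0.23) or midbrain wild-type replicate 2 (0.29). Nrarp, a direct Notch target that feeds back on the pathway, was picked out once its level was known, and stood at 149 ± 3.15 CPM in wild-type forebrain and 194 ± 0.255 CPM in midbrain of wild type (SD, n = 2), in the direction of Hes5.

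Among the other Hes-related genes, 3 of 5 tested were higher in midbrain of wild type (60%, beside 29.6% of all genes tested). Hes2 had 3 counts over all forebrain libraries and 42 over all midbrain libraries, and Hes3 had 4 and 357. Both met the filter on low counts only through midbrain and could only come out higher there, so their direction is no test. Hes3, a gene of the midbrain-hindbrain boundary, had 0 and 1 counts in wild-type forebrain and 98 and 98 counts in wild-type midbrain. The ratio of midbrain to forebrain, at equal depth, was 191, with an exact 95% interval of 33.9 to 7.6e+03 that covers counting error only. In the knockout libraries it had 3 and 0 counts in forebrain and 89 and 72 in midbrain, a ratio of 85 (28.6 to 416). Helt, known for its part in midbrain GABA neurons, measured 1.18 ± 0.248 CPM in wild-type forebrain and 17.2 ± 4.36 CPM in midbrain of wild type (SD, n = 2), or -3.85 (SE 0.276) as a log2 fold change. Among ligands, Dlk1, which lacks the domain that activates receptors, was higher in forebrain, at 116 ± 9.09 against 76.3 ± 4.84 CPM in midbrain of wild type (SD, n = 2). Its log2 fold change was 0.60 and did not pass without forebrain wild-type replicate 2 (0.52) or midbrain wild-type replicate 1 (0.53). Dner, a neuronal protein with Delta-like repeats, had the largest difference of the other receptor and ligand genes in the knockout libraries, with a log2 fold change of -0.95. Its levels were 23.2 ± 7.03 CPM in the forebrain libraries and 45.1 ± 5.54 CPM in those of midbrain (SD, n = 2).

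**Figure D4:**
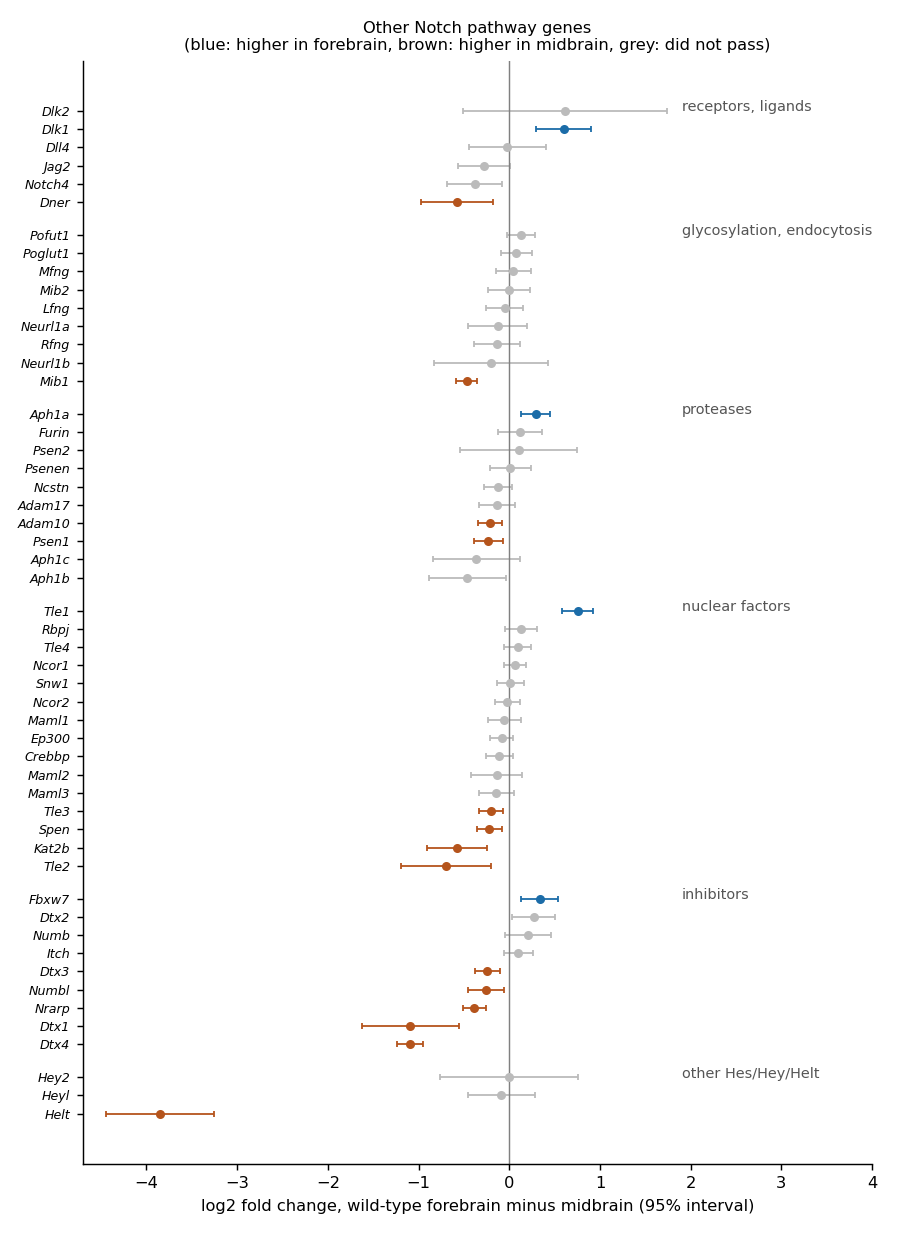
Log2 fold change with its 95% interval, wild-type forebrain minus wild-type midbrain, for 52 other pathway genes grouped by role, coloured where the adjusted p passed. Most genes lie close to 0, with Tle1 at 0.75, Dtx4 at -1.10 and Helt at -3.85; Hes2 and Hes3 are left out because forebrain had almost no counts of them.

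For each of the 8 members that passed, the gene with the most similar profile was found among 10607 other genes of at least 10 CPM, as the smallest root mean square difference of centred log2 CPM over the 8 libraries. For Hes1 it was Aff2 (0.072), for Hes5 Pde1c (0.040) and for Hes6 Soga3 (0.043). For Jag1 it was Rgma (0.044) and for Dll3 Atp1b1 (0.061). For Notch2 it was Igf2r (0.044), for Notch3 Ralgapa1 (0.032) and for Hey1 Fam83d (0.039). The members' own ranges over the libraries were 0.40 for Notch3 to 1.49 for Hes1 on the log2 scale. Among the members themselves, Notch1 and Dll1 were the closest pair (0.078), then Notch1 and Notch3 (0.094) and Notch2 and Hey1 (0.096), and Hes1 and Dll3 were the farthest apart (1.28). These likenesses are a description.

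In the forebrain, the hs267-853 knockout was compared with wild type to ask which genes depend on the deleted sequence. None of the 10 genes passed by the edgeR quasi-likelihood test (0 of 10), none had an unadjusted p under 0.05, and DESeq2 and limma-voom also called 0. Of all genes tested, 0.013% passed. The fold changes ran from -0.098 for Hey1 to 0.16 for Dll3 on the log2 scale, and the median size was 0.058, against 0.091 for all genes. Hes1 was the only member whose knockout libraries (51.0 and 54.4 CPM) lay on one side of the wild-type libraries (55.4 and 56.5 CPM), while 31.1% of all genes tested did so. Its log2 fold change was -0.089, with a 95% interval of -0.33 to 0.15.

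The knockout replicates themselves differed. Replicate 1, the library set apart by the second principal component, was above replicate 2 in Dll3 (46.0 and 35.2 CPM), Hes5 (131 and 93.9 CPM) and Hes6 (133 and 104 CPM) and below it in Notch2 (109 and 133 CPM). In the same libraries the neuronal list summed to 2096 and 1487 CPM, the progenitor list to 6033 and 5674 CPM and a list of 8 mesenchymal genes to 1207 and 1876 CPM. Without replicate 1 the knockout log2 fold change was -0.045 for Dll3, -0.22 for Hes5 and -0.12 for Hes6, and none passed. The part of the makeup of these pools was not tested.

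Hes1 messenger RNA is a known target of the microRNA miR-9. C130071C03Rik, whose RefSeq span overlaps the miR-9 gene Mir9-2, measured 284 and 296 CPM in wild-type forebrain and 122 and 89.2 CPM in the knockout. The mature strand is shown because its seed, bases 2 to 8 in capitals, is what pairs with targets (RefSeq, GRCm38.p6, chr13:83738821-83738843, plus strand).
mmu-miR-9-5p: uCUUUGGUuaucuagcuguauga
Mature miR-9 was not measured by these poly(A) libraries. The log2 fold change of C130071C03Rik was -1.46 with a standard error of 0.111 (adjusted p 0.000133) by the edgeR quasi-likelihood test, beside -0.089 for Hes1 in the same libraries. Whether the 2 values are related was not tested. C130071C03Rik was picked with its fall in this knockout already known, so its values are a description.

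In the midbrain, the hs654 knockout was compared with wild type in the same way. Again none of the 10 genes passed (0 of 10), none had an unadjusted p under 0.05, and DESeq2 and limma-voom called 0. Of all genes tested, 0% passed. The fold changes ran from -0.11 for Jag1 to 0.11 for Hes6 on the log2 scale, and the median size was 0.054, against 0.096 for all genes. The knockout libraries lay on one side of the wild-type libraries for 3 members, against 36.8% of all genes tested. These were Notch1 (342 and 320.1 CPM in the knockout, 316 and 318 CPM in wild type), Hes6 (188 and 183 against 179.9 and 162 CPM) and Jag1 (96.9 and 93.5 against 103.9 and 101.5 CPM). The neuronal list summed to 3793 and 3896 CPM in the knockout and 3625 and 3450 CPM in wild type, and its part in these values was not tested.

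**Figure D5:**
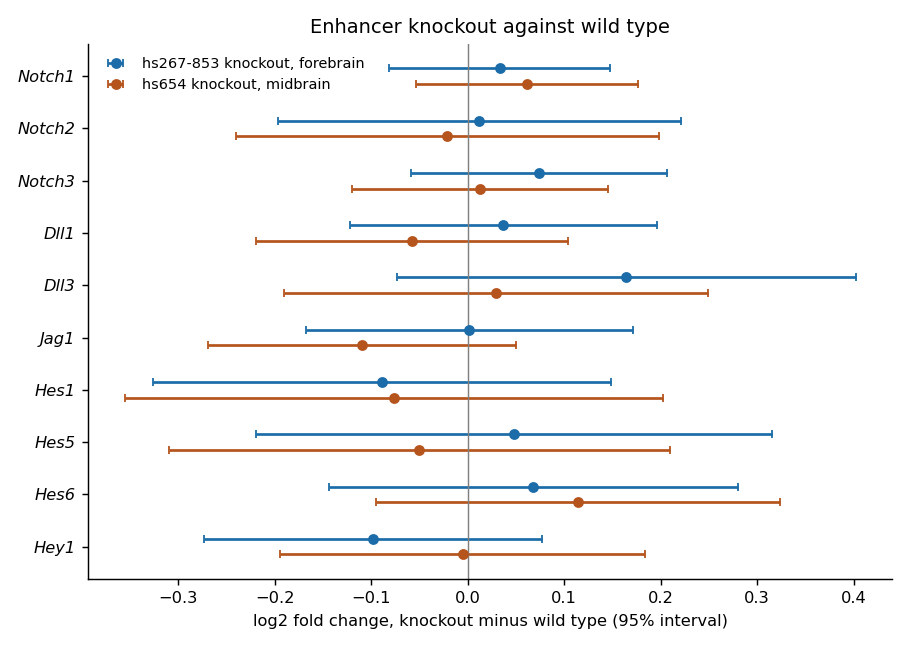
Log2 fold change of each gene, knockout minus wild type, with its 95% interval, for the hs267-853 knockout in forebrain (blue) and the hs654 knockout in midbrain (brown). Every interval includes 0, and the intervals of the 10 genes lie between -0.36 and 0.40 in both tissues.

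The 95% intervals bound what these libraries could have missed. Over the 10 genes and both knockouts they ran from -0.36 for Hes1 in midbrain to 0.40 for Dll3 in forebrain, so that fold changes of 0.782 and of 1.32 are the extremes they allow. The narrowest were those of Notch1, at -0.081 to 0.15 in forebrain and -0.053 to 0.18 in midbrain. Of the 54 other pathway genes tested, 0 passed in either knockout by the edgeR quasi-likelihood test, DESeq2 or limma-voom. An unadjusted p under 0.05 was seen for 6 in forebrain and 3 in midbrain, and 4.78% and 3.96% of all genes tested had one. Those with the smallest p in forebrain were Dtx4 (log2 fold change 0.18, 95% interval 0.037 to 0.32) and Tle1 (0.19, 0.026 to 0.36), both at an adjusted p of 0.984 by the edgeR quasi-likelihood test. In midbrain they were Numbl (0.25, 0.053 to 0.44) and Rfng (0.29, 0.036 to 0.54), both at an adjusted p of 0.992 by the same edgeR test. NUMBL belongs to the Numb proteins that inhibit Notch, and RFNG adds sugars to the receptors.

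A few of these depended on 1 library or on the filter. Without forebrain knockout replicate 2, 3 pathway genes passed in forebrain: Dlk1 (0.54), Dtx1 (0.82) and Tle1 (0.32). In that fit 209 of all 15702 genes tested passed, against 2 of 15383 with all libraries, and the knockout was represented by replicate 1 alone, the library set apart on the second principal component. Dlk1 (0.30) also passed where genes with low counts were kept, as did 161 of all 20235 genes, with an adjusted p of 0.0130 by the edgeR quasi-likelihood test. Dlk1 measured 168 and 117 CPM in knockout replicates 1 and 2 and 109 and 122 CPM in wild-type forebrain.

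The knockout effects were also compared with each other, as the midbrain effect minus the forebrain effect, with tissue and deletion differing together. None of the 10 genes differed (0 of 10 by the edgeR quasi-likelihood test, DESeq2 and limma-voom, 0 at an unadjusted p under 0.05), where 0.0065% of all genes passed and 4.02% were under 0.05 before adjustment. The differences ran from -0.14 (SE 0.150) for Dll3 to 0.093 (SE 0.119) for Hey1 on the log2 scale. Since this contrast also measures whether the tissue difference depends on genotype, the tissue differences of the 10 genes in wild-type and knockout libraries did not differ detectably either. Of the 54 other pathway genes 0 passed, and Helt had the only unadjusted p under 0.05, at 0.0349, with a difference of -0.95 (SE 0.401).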

How the data were processed

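Poly(A) RNA was measured in 8 libraries, 2 for each of 4 groups, taken from the sample labels. The authors deposited raw read counts per gene. Per the submitters' processing notes, STAR, HTSeq and DESeq2 were used with mm10; versions, annotation and strand setting are not given in the sources used here. Rows naming no gene (5 per table) were left out. Those for reads in no feature and for ambiguous reads held 55.9% to 59.3% of the counts in them and in genes together. Reads in no feature alone held 55.4% to 56.3% in forebrain libraries and 57.2% to 58.9% in midbrain libraries, so the tissues did not overlap. The cause of this large share, and its part in the tissue differences, were not tested. Genes with low counts were removed with edgeR's filterByExpr, leaving 15383, and libraries were scaled by TMM (edgeR 4.0.16, R 4.3.3). One quasi-likelihood fit over all 8 libraries, with a mean per group and no other covariate, gave 5 contrasts: forebrain minus midbrain in wild-type and in knockout libraries, knockout minus wild type in each tissue, and the difference between the knockout effects. P-values were adjusted by Benjamini and Hochberg over all genes tested, with a threshold of 0.05. Standard errors are the log2 fold change divided by the root of the F statistic, and 95% intervals use the fit's degrees of freedom.

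The 10 genes, the pathway list and the marker lists were chosen with earlier results of these data known. All 10 were named in each contrast. Other pathway genes were named where they passed at a mean level of 1 CPM or more, up to 3 in each direction by size of change. In the knockouts, where none passed, the 2 with the smallest p were named. Genes named beyond this rule (Mib1, Rbpj, Nrarp, Dtx1, Hes2 and C130071C03Rik) were chosen after their values were seen. The log2 CPM behind the likeness search have 2 as their prior count. In simulated counts for the forebrain knockout comparison (15212 genes), the test recovered 50.7% of genes changed 1.5-fold, 74.6% of those changed by 1 and 100% of those changed by 2 on the log2 scale. Of its 166 calls 16 were false, and it made 4 calls where no change was simulated. Other settings tried were scaling by RLE or upper quartile, leaving off the filter or asking for a mean of 50 counts, the tools DESeq2 1.42.0 and limma 3.58.1 (voom), a fit of the compared groups alone, blocking on the replicate number, and leaving out each library.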

Additional observations from a re-analysis of the deposited data

How the results depend on the processing

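Each group had 2 libraries, so a call can rest on 1 of them. The number of the 10 genes past the threshold was 8 in both tissue comparisons under every setting that kept all libraries, except 9 in the knockout libraries at a mean of at least 50 counts, and was 7 to 8 with 1 library left out. In both knockouts and in their difference it was 0 throughout. Over all genes, counts in the knockout comparisons moved: without a filter they were 161 in forebrain, 22 in midbrain and 111 for the difference, DESeq2 gave 13 in forebrain and 4 for the difference, limma-voom gave 1 in forebrain, and fits of only the 2 groups compared gave 1 in forebrain and 1 in midbrain, against 2, 0 and 1. That last fit was not run for the difference, which needs all groups. For the other pathway genes 1 passed in forebrain without a filter. With 1 library left out, where the remaining library of its group is assumed to vary like the others, calls over all genes were 2816 to 5285 and 2810 to 4358 for the tissue comparisons in wild-type and knockout libraries, 1 to 209 in forebrain, 0 to 8 in midbrain and 0 to 64 for the difference. For the other pathway genes they were 10 to 21 in both tissue comparisons and 0 to 3 in forebrain. The mean-count filter gave no value for Hes3.

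Signs changed only for log2 fold changes that had not passed, and the cause was not tested. Jag1 in the forebrain knockout was -0.0027 with RLE scaling, -0.0030 with upper-quartile scaling, -0.0016 without a filter, -0.0064 at a mean of at least 50 counts, -0.0027 with DESeq2 and -0.0087 in the fit of 2 groups. Hey1 in the midbrain knockout was 0.0050 with RLE scaling, 0.0048 without a filter, 0.0066 at a mean of at least 50 counts, 0.0046 with DESeq2 and 6.38e-05 with limma-voom. With 1 library left out, log2 fold changes in the forebrain knockout ran from -0.14 to 0.15 for Notch2, -0.0058 to 0.16 for Notch3, -0.0034 to 0.076 for Dll1, -0.045 to 0.34 for Dll3, -0.071 to 0.068 for Jag1, -0.22 to 0.27 for Hes5 and -0.12 to 0.23 for Hes6. In the midbrain knockout they ran from -0.14 to 0.11 for Notch2, -0.15 to 0.047 for Dll1, -0.026 to 0.095 for Dll3, -0.24 to 0.094 for Hes1, -0.14 to 0.038 for Hes5 and -0.044 to 0.039 for Hey1. Dll1 between the tissues in knockout libraries ran from -0.049 to 0.031, and the difference between the knockout effects from -0.31 to 0.073 for Dll3.

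The labels number the replicates in each group, but same-numbered libraries did not deviate together across 15383 genes (r = -0.025 to 0.067 over pairs of groups), so the numbers were not taken as a pairing. With the replicate number as a block, 8, 0, 0, 8 and 0 of the 10 genes passed in wild-type tissue, forebrain knockout, midbrain knockout, knockout tissue and the difference, as without it, and 4501, 3, 0, 4515 and 1 of all genes did.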
